A study of Mus musculus with 11 samples.

Results

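The vasopressin and oxytocin system was followed here through 4 genes of the 14864 in the deposited table: Avp and Oxt, which encode the peptides, and Oxtr and Avpr1a, which encode a receptor for each. Their rows were taken by gene name, and the 4 genes were chosen with earlier results of these data known. RNA was sequenced from the hypothalamus of mice aged 60 to 70 days, with 1 library per animal. The 5 animals labelled wild type (WT) were 2 females and 3 males. The 6 animals labelled heterozygous (Het) for Myt1l loss were 3 females and 3 males. The labels do not describe the allele or the strain. The protein made from Myt1l is a neuronal transcription factor with zinc fingers.

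Vasopressin and oxytocin are made as larger precursors, mainly in the magnocellular and parvocellular neurons of the paraventricular and supraoptic nuclei. The precursors are cleaved in secretory granules, and the peptides are released from the posterior pituitary into the blood and from axons within the brain. The suprachiasmatic nucleus also makes vasopressin. The oxytocin receptor and the V1a vasopressin receptor act through Gq proteins and phospholipase C. In rodents both systems are known for roles in social behaviour, water balance, stress and reproduction, and vasopressin innervation of some brain regions differs between the sexes.

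Avp and Oxt are neighbours that face each other with their 3′ ends. On mouse build mm10, Avp (ENSMUSG00000037727) lies on the minus strand at chr2:130580620-130582554 and Oxt (ENSMUSG00000027301) on the plus strand at chr2:130576173-130577054, each with 3 exons. Their 3′ ends are 3.565 kb apart. Oxtr (ENSMUSG00000049112) lies at chr6:112473683-112489943 on the minus strand, and Avpr1a (ENSMUSG00000020123) at chr10:122448499-122453452 on the plus strand. No exon of the 4 genes overlapped an exon of another annotated gene.

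The coding bases of both hormones are shown because they are what tells the peptides apart. In these stretches from the GENCODE transcripts, read 5′ to 3′ on the coding strand, capitals mark the bases that differ (5 of 27), which change 2 of the 9 residues. The Avp stretch lies at chr2:130582446-130582472 and the Oxt stretch at chr2:130576267-130576293.
Avp hormone: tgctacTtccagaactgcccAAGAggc
Oxt hormone: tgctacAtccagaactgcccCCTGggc

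The transcripts also share a run of 127 identical bases that crosses from exon 1 into exon 2 in both genes. It is shown because reads lying wholly inside it cannot be assigned to either gene.
Avp and Oxt shared run: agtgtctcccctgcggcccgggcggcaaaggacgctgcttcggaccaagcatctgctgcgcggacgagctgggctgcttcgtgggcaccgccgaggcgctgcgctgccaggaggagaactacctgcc
It codes for part of neurophysin, the carrier protein in each precursor. Of the 50-base windows of each transcript, 14.8% in Avp and 16.0% in Oxt occur in the other. For 100-base windows the shares were 5.86% and 6.39%. The authors' treatment of reads that fit both genes was not given in the sources used here. A small part of each level is therefore uncertain between them.

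The 250 bases upstream of each start are shown because both peptide genes differed between the groups. They come from RefSeq on build GRCm38.p6, at chr2:130582589-130582838 (minus strand) for Avp and chr2:130575919-130576168 (plus strand) for Oxt. Capitals mark matches to AGGTCA or its reverse complement TGACCT, the letters that many nuclear receptors bind, and to the E-box CANNTG, which basic helix-loop-helix factors bind. The motifs were searched on both strands, and the marked matches do not overlap each other.
Avp upstream: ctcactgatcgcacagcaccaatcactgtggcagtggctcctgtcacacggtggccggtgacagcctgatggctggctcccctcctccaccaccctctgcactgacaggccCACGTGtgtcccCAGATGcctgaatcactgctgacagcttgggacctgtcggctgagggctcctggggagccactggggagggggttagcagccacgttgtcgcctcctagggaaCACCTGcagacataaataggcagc
Oxt upstream: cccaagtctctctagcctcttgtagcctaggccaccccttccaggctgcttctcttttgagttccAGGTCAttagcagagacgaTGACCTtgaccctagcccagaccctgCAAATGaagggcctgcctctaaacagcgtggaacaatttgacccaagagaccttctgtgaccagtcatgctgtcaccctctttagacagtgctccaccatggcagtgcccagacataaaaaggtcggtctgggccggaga
AGGTCA or its complement occurred 2 times upstream of Oxt, starting 185 and 166 bases before the start, and was not among the letters upstream of Avp. Of 32851 promoters of the same length, 14.0% held it. The E-box occurred 3 times upstream of Avp and 1 time upstream of Oxt, and 66.2% of promoters held it. AAAGTT or its complement AACTTT, the core letters bound by MYT1 family zinc fingers, occurred in none of the 4 windows and in 12.4% of promoters. These matches describe letters only.

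The deposited values are library-scaled counts (CPM) after a correction for unwanted variation, and levels are given as corrected CPM. The libraries held 22921048 to 24941704 corrected counts. Over the libraries, Avp had 5129 to 13231 corrected counts and Oxt 4694 to 12058. Oxtr had 32 to 108 and Avpr1a 60 to 152, so the receptor values are far coarser. Genotype labels were checked against Myt1l first. Its level was 51.1 to 89.3 CPM in the libraries labelled WT and 58.7 to 130 CPM in those labelled Het, with a log2 difference of -0.01 (limma adjusted p = 0.976). WT replicate 11 was the lowest of all libraries and Het replicate 9 the highest, against their labels. Without them the Myt1l difference was -0.32 (limma adjusted p = 0.0679). They were singled out by their Myt1l values, so this is no separate check of the labels. WT and Het below therefore mean the libraries so labelled, and the results on the peptides are also given without these 2 libraries. Markers of the hypothalamus were present, with Hcrt (orexin) at 1233 CPM and Pmch (melanin-concentrating hormone) at 540 CPM on average in WT. The pituitary hormone genes Gh, Prl and Lhb are not analysed here. Fshb, Tshb and Tbx19 averaged less than 1 CPM in both genotypes.

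Divided by exon length, the peptide genes stood far above the receptor genes. Mean WT levels were 808 ± 151 CPM per kb for Avp and 729 ± 183 for Oxt (SD, n = 5), whose ranges overlapped. Avpr1a was at 1.88 ± 0.350 CPM per kb and Oxtr at 0.603 ± 0.225. The lowest Avpr1a library, at 0.942 CPM per kb in Het, lay just under the highest Oxtr library, at 0.947 in WT. Within each genotype their ranges did not overlap. By mean WT CPM, without the division by length, Avp ranked 391st and Oxt 481st of the 13184 genes tested, Avpr1a 10253rd and Oxtr 11467th.

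Avp was lower in the Het hypothalamus than in WT of the same sex. WT females had 550 and 555 CPM, and WT males had 359, 404 and 462 CPM. Het females had 405, 462 and 372 CPM, and Het males had 226, 241 and 215 CPM. Within each sex the genotypes did not overlap, while Het females and WT males covered almost the same range. The mean fell from 466.1 ± 87.1 CPM (SD, n = 5) in WT to 320 ± 106 CPM (SD, n = 6) in Het. With sex in the model, the log2 difference was -0.65 (SE 0.085, 95% confidence interval -0.83 to -0.47, limma adjusted p = 0.00292). An exact permutation that exchanged genotypes among animals of 1 sex, two-sided, gave p = 0.005, the smallest that its 200 arrangements can give.

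Oxt followed the same order of groups. WT females had 503 and 486 CPM, and WT males had 296, 304 and 369 CPM. Het females had 329, 435 and 334 CPM, and Het males had 214, 265 and 197 CPM. Here too the genotypes were separate within each sex and overlapped across the sexes. WT libraries averaged 392 ± 98.5 CPM (SD, n = 5), and Het libraries averaged 296 ± 88.7 CPM (SD, n = 6). The log2 difference was -0.49 (SE 0.089, 95% confidence interval -0.68 to -0.30, limma adjusted p = 0.00959), and the exact permutation gave p = 0.01.

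**Figure D1:**
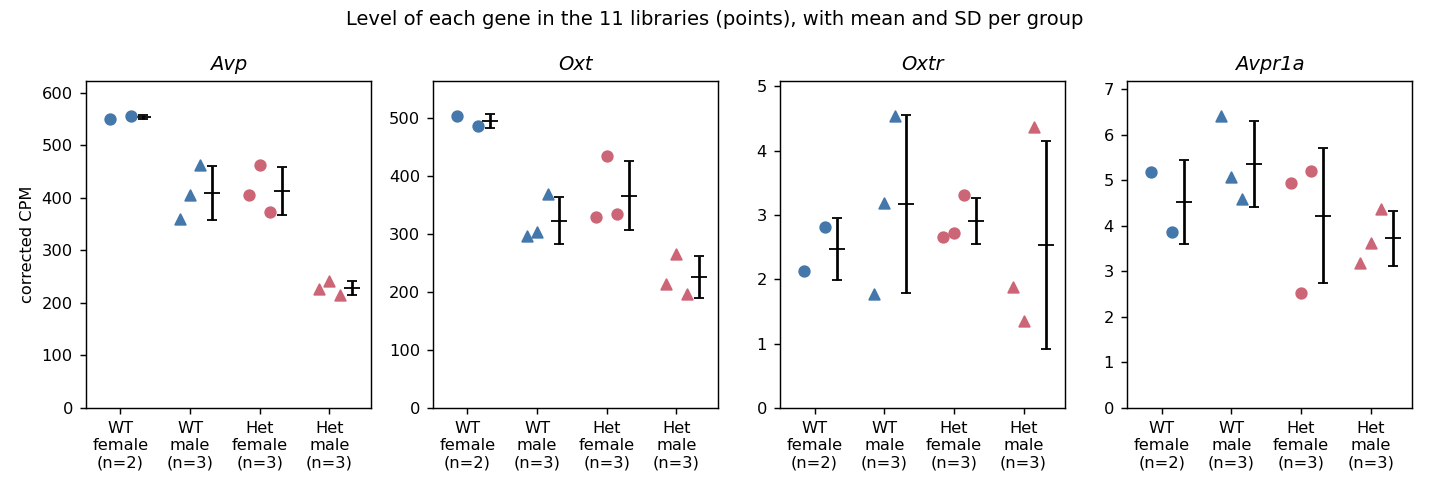
Level of Avp, Oxt, Oxtr and Avpr1a in corrected CPM (vertical axes from 0, a scale for each gene) for WT and Het females and males. Points are the 11 libraries and bars are the mean and SD per group. For Avp and Oxt the WT females are highest (means 553 and 495 CPM) and the Het males lowest (228 and 226 CPM). The receptor groups overlap, except Avpr1a between WT and Het males, whose nearest values are 4.58 and 4.37 CPM.

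Between the genotypes, 3.44% of genes passed the threshold of an adjusted p of 0.05, 2.3% as higher in Het. The other 150 of 13184 genes tested, 1.14%, passed as lower in Het. Avp had the fourth smallest p of all genes, and Avp and Oxt ranked 16th and 23rd by size among the 150. The count of lower genes was 243 with libraries centred on their medians and 102 with quantile normalization, against 233 and 362 higher genes there and 303 in the fit reported. Avp and Oxt passed under both scalings. The order in which each Het library lay below each WT library of its sex held for Avp and Oxt and for 3.6% of genes. No peptide gene had every Het library below every WT library, an order that 1.33% of genes showed. Without WT replicate 11 and Het replicate 9, the log2 difference was -0.55 for Avp (limma adjusted p = 0.0093) and -0.39 for Oxt (limma adjusted p = 0.0423), and 1.74% of genes passed. Without the sex term neither gene passed (limma adjusted p = 0.112 and 0.215). In a bulk sample, fewer Avp or Oxt neurons and less RNA per neuron cannot be told apart.

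Each library also carries an identifier with a prefix, which the labels leave unexplained. The 2 WT and 2 Het libraries of prefix 14308 were all male. Prefix 14309 covered 2 WT and 4 Het libraries, with males and females in each genotype, and prefix 14111 only WT replicate 4, a female. Within 14308 the log2 difference was -0.70 for Avp (limma adjusted p = 0.0190) and -0.33 for Oxt (limma adjusted p = 0.279). Within 14309 it was -0.70 for Avp (limma adjusted p = 0.0824) and -0.61 for Oxt (limma adjusted p = 0.0995). Both genes were therefore lower in Het in each prefix, and 1 of these 4 values passed. The males of 14309 were WT replicate 11 and Het replicate 9, whose labels are in doubt. Its other WT library was replicate 6, a female, so the 14309 differences rest on these few animals.

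Sex separated the peptide genes by about as much as genotype did. Over all libraries, Avp averaged 469 ± 83.0 CPM in females (SD, n = 5) and 318 ± 105 CPM in males (SD, n = 6), and Oxt 418 ± 82.5 CPM in females and 274 ± 63.2 CPM in males. With genotype in the model, the male minus female log2 difference was -0.67 for Avp (SE 0.085, limma adjusted p = 0.00103) and -0.66 for Oxt (SE 0.089, limma adjusted p = 0.00182). The exact permutation of sex within genotype gave p = 0.01 for Avp and p = 0.005 for Oxt. Only 10 genes, 0.0758% of those tested, passed as lower in males, and Avp and Oxt ranked 2nd and 3rd lowest of them. Every male library lay below every female library of its genotype for both genes, as for 1.71% of genes. The within-sex and within-genotype orders both held for 62 genes, 0.47% of those tested, Avp and Oxt among them.

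The sexes were spread unevenly over the prefixes, since 14308 was all male. The only males of 14309 were WT replicate 11 and Het replicate 9, the libraries whose labels are in doubt. No other prefix held both sexes, so a fit with the prefix as a block also compares the sexes through these males. Within 14309 alone the male minus female difference was of the same size, -0.67 for Avp and -0.69 for Oxt, but did not pass (limma adjusted p = 0.150 and 0.137). With the prefix as a block it was -0.67 and -0.65 (limma adjusted p = 0.0701 and 0.126).

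Genes lower in both comparisons were few. Avp, Oxt, Hcrt and Ndufab1, which encodes a mitochondrial acyl carrier protein, passed as lower in Het and as lower in males. Hcrt had a log2 difference of -0.38 by genotype and -0.38 by sex. For Avp and Oxt the Het male group stood lowest of the 4 groups. Its Avp mean was 58.8% below that of WT females, and its Oxt mean 54.4% below.

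For Avp the genotype difference was numerically larger in males. The mean was 44.3% lower in Het males than in WT males, and 25.3% lower in Het females than in WT females. In a fit with a genotype by sex term, the log2 difference was -0.84 in males (limma adjusted p = 0.00474; 0.0683% of genes passed) and -0.43 in females (limma adjusted p = 0.145). The term itself was -0.41 (95% confidence interval -0.72 to -0.10), with an unadjusted p of 0.0125 and a limma adjusted p of 0.982, so a difference between the sexes did not pass. No gene passed for that term (0%), and 613 genes, 4.65%, had an unadjusted limma p under 0.05. For Oxt the differences were -0.52 in males and -0.45 in females (limma adjusted p = 0.119 and 0.211), and the term was -0.07 (95% confidence interval -0.47 to 0.32).

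**Figure D2:**
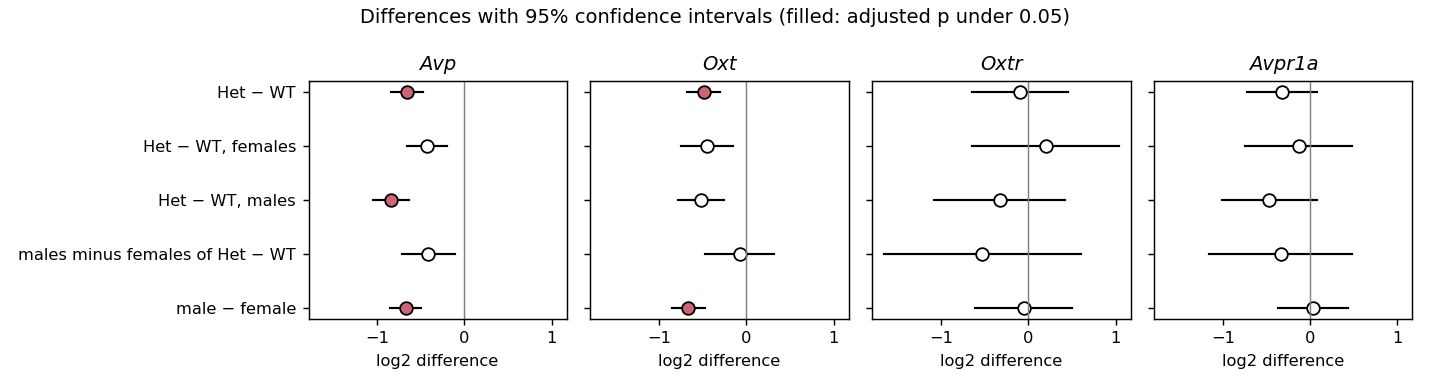
Log2 differences of the 4 genes (horizontal axes) for Het minus WT over all libraries, for Het minus WT in each sex, for male minus female, and for the genotype by sex term. Bars are 95% confidence intervals and filled points have an adjusted p under 0.05. For Avp and Oxt the genotype and sex differences over all libraries lie between -0.49 and -0.67, and the receptor intervals include 0.

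Avp and Oxt were close in level, and their ratio was compared within each library. The Avp to Oxt ratio of CPM was 1.09 and 1.14 in WT females and 1.21, 1.33 and 1.25 in WT males. It was 1.23, 1.06 and 1.11 in Het females and 1.05, 0.909 and 1.09 in Het males. All 3 Het males lay below all 3 WT males, while the females overlapped. Means were 1.21 ± 0.093 in WT (SD, n = 5) and 1.08 ± 0.104 in Het (SD, n = 6). The log2 ratio differed by -0.17 between genotypes, and the two-sided exact permutation gave p = 0.07, so a change in the ratio did not pass. In males alone it differed by -0.32 (exact permutation p = 0.1, the smallest that 3 against 3 can give) and in females alone by 0.02 (exact permutation p = 0.9).

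**Figure D3:**
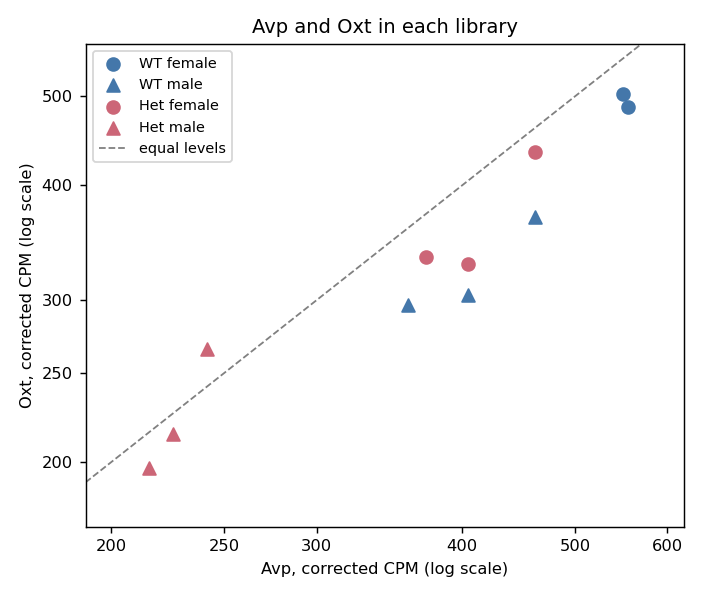
Oxt against Avp in corrected CPM (both axes on a log scale) for the 11 libraries, with colour for genotype and shape for sex. The dashed line marks equal levels. Libraries run from 215 CPM of Avp in Het replicate 9 to 555 CPM in WT replicate 6, and 10 of 11 lie on the side where Avp exceeds Oxt.

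The levels of the peptide genes also moved together between animals of the same group. After each group of genotype and sex was centred on its mean, Avp and Oxt correlated over the 11 libraries with r = 0.861 and rho = 0.845. Permutation within groups gave p = 0.00926 for both, and 0.0347 and 0.0417 after adjustment over the 6 pairs of the 4 genes. Without the 2 libraries farthest from the median of Avp, Het replicates 9 and 5, r was 0.887 (permutation p = 0.0556). Without WT replicate 11 and Het replicate 9, r was 0.798 (permutation p = 0.0833). Avp and Avpr1a ran in opposite directions, with r = -0.793 and rho = -0.855 (permutation p = 0.0116 and 0.0139, adjusted 0.0347 and 0.0417). Without the same 2 farthest libraries, r was -0.825 (permutation p = 0.0139). Among 13183 genes ranked by their within-group correlation with Avp, Avpr1a was only 438th from the lowest. For Avpr1a, Avp was 195th from the lowest. This pair was not computed without WT replicate 11 and Het replicate 9. For Oxt and Avpr1a, r was -0.703 and rho -0.764 (permutation p = 0.0694 and 0.0417, adjusted 0.139 and 0.0833). No pair with Oxtr passed, with r between -0.20 and 0.13. The libraries share the authors' correction, which acted on this remaining variation.

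Around the model with genotype and sex, Avp and Oxt varied more than most genes of like level. That model has no genotype by sex term, so its residual SD also holds any such difference. For Avp that term was -0.41 when fitted. The residual SD of Avp and Oxt on the log2 scale was 0.173 and 0.183, against a median of 0.0990 and 0.0994 for genes of like mean level. It was larger than that of 87.7% and 90.5% of such genes. Among 13183 genes ranked by their within-group correlation with Oxt, Avp ranked 55th, and Oxt ranked 205th for Avp. The 5 genes most like Avp were Drosha, Icam5, Neurod2, Gnb2 and Tulp3, with r from 0.968 to 0.988. Among those most like Oxt were Unc13d, Gramd2, Klhdc8a and Acot1, with r from 0.949 to 0.954. None of these 9 passed between genotypes or sexes.

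The receptor genes did not pass in either comparison. Oxtr, the oxytocin receptor, was at 2.13 and 2.81 CPM in WT females, 1.77, 3.19 and 4.54 in WT males, 2.66, 2.73 and 3.31 in Het females and 1.89, 1.35 and 4.37 in Het males. All groups overlapped, and the 2 highest libraries were WT replicate 11 and Het replicate 9. The log2 difference was -0.09 between genotypes (95% confidence interval -0.64 to 0.46, limma adjusted p = 0.870) and -0.05 between sexes (limma adjusted p = 0.954). The genotype interval includes a difference as large as that of Oxt. The residual SD of Oxtr was 0.5003 on the log2 scale, larger than that of 86.7% of genes of like level, whose median was 0.343.

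Avpr1a, the V1a receptor, was at 5.18 and 3.86 CPM in WT females and 6.41, 5.07 and 4.58 CPM in WT males. In Het it was at 4.94, 2.52 and 5.20 CPM in females and 3.19, 3.62 and 4.37 CPM in males. The males of the 2 genotypes did not overlap, and the females did. The nearest male values were those of Het replicate 9 and WT replicate 11, the libraries in doubt. The share of all genes with males separate in this way is not given here. WT libraries averaged 5.02 ± 0.935 CPM (SD, n = 5) and Het libraries 3.97 ± 1.05 (SD, n = 6). The log2 difference was -0.32 (95% confidence interval -0.72 to 0.08, limma adjusted p = 0.334, exact permutation p = 0.155), and 0.04 between sexes (limma adjusted p = 0.958). The genotype interval includes differences as large as that of Avp. The residual SD of Avpr1a was 0.327, against a median of 0.293 for genes of like level. The genes most like Oxtr within groups were Nfkbib, Sbno1, Elovl6, Ramp1 and Cplx1 (r from 0.941 to 0.984). Those most like Avpr1a were Idh1, Sfr1, Cdkal1, Cgrrf1 and Cop1 (r from 0.942 to 0.978). Of these, Sbno1 passed as higher in Het (log2 difference 0.34, limma adjusted p = 0.00868). The others did not pass between genotypes, and none passed between sexes.

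Downstream of these receptors, a group of 19 further receptor and Gq signalling genes was described. Avpr1b and Avpr2, the other vasopressin receptors, are not analysed here. Of the 16 tested, 4 rose in Het, against 2.3% of all genes tested, none fell and 12 did not pass. The median log2 difference was 0.20 against -0.02 over all genes. Gnaq, the Gq alpha subunit, was at 148 ± 3.50 CPM in WT libraries (SD, n = 5). It rose to 194 ± 11.1 CPM in the 6 Het libraries (log2 difference 0.40, limma adjusted p = 0.00349). Prkcb, a protein kinase C, rose from 52.9 ± 3.00 to 69.4 ± 5.28 CPM (0.40, limma adjusted p = 0.00646). Gna11, a close relative of Gnaq, rose by 0.21 (limma adjusted p = 0.0410) and Itpr1, the calcium channel opened by inositol trisphosphate, by 0.33 (limma adjusted p = 0.0460). Without WT replicate 11 and Het replicate 9, Gnaq and Prkcb passed and the other 2 did not (limma adjusted p = 0.0964 and 0.0892). Leaving out 1 library, Gnaq and Prkcb passed in 11 of 11 runs, Gna11 in 2 and Itpr1 in 3, and the count of called genes ran from 2 to 5.

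None of the 14 genes for prohormone processing and secretion passed, and 13 had a lower estimate in Het, with a median of -0.16. Cpe, the carboxypeptidase that trims peptide precursors, was at 1833 ± 125 CPM in WT and 1571 ± 108 CPM in Het (log2 difference -0.23, limma adjusted p = 0.0513). Scg5, the chaperone of proprotein convertase PC2, was at 629 ± 23.1 and 546 ± 54.8 CPM (-0.22, limma adjusted p = 0.0682). These SDs are over 5 WT and 6 Het libraries. The convertase genes Pcsk1 and Pcsk2 had differences of -0.11 and 0.04.

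Among the transcription factors of the magnocellular lineage, 1 of 4 tested rose and none fell, with a median of 0.12. Over all genes tested, 2.3% passed as higher and 1.14% as lower. Arnt2, the partner of SIM1 in forming these neurons, rose by 0.31 on the log2 scale, from a mean of 27.5 CPM over the 5 WT libraries to one of 34.03 CPM over the 6 Het libraries (limma adjusted p = 0.0442). It passed in 2 of 11 runs that left out 1 library, and its adjusted p was 0.0526 without WT replicate 11 and Het replicate 9 (limma). Sim1 and Otp, which mark the lineage, differed by 0.06 and -0.21 (limma adjusted p = 0.903 and 0.539). Sim1 was at 1.52 CPM in WT and 1.62 CPM in Het, and Otp at 3.17 and 2.77 CPM, with overlapping ranges.

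Of 11 other peptide genes of paraventricular and supraoptic neurons, 1 rose, 2 fell and the median was -0.17. Of all genes tested, 2.3% passed as higher in Het and 1.14% as lower. Adcyap1 (PACAP) fell by 0.39 on the log2 scale and Gal (galanin) by 0.34, while Pdyn (prodynorphin, present with vasopressin in magnocellular neurons and also made in the striatum) rose by 0.41 (limma adjusted p = 0.0250, 0.0278 and 0.0368). They passed in 6, 7 and 5 of 11 runs that left out 1 library. No gene of the list passed without WT replicate 6, or without either of Het replicates 8 and 9, and 2 passed without WT replicate 11 and Het replicate 9 together. None of 9 osmotic and transcriptional regulators passed (median 0.07). Nr3c1, the glucocorticoid receptor, differed by 0.21 and Rasd1, a small GTPase, by -0.26 (limma adjusted p = 0.163 and 0.204). None of 4 genes of peptide breakdown passed either (median 0.02), with Lnpep, the oxytocin-degrading aminopeptidase, at 0.24 and Thop1, an endopeptidase, at -0.28 (limma adjusted p = 0.176 and 0.298).

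The suprachiasmatic nucleus, the other hypothalamic source of Avp RNA, was read from 8 marker genes. None passed, 4 were higher and 4 lower in Het, and the median was -0.07. Grp, a peptide of its core, differed by -0.43 and Six6, a transcription factor of its development, by -0.47 (limma adjusted p = 0.110 and 0.166). The summed level of the 8 genes was 63.6 to 82.9 CPM in WT and 64.1 to 77.8 CPM in Het.

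Markers of other tissue also moved with genotype. Over all genes tested, 2.3% passed as higher in Het and 1.14% as lower, and the median log2 difference was -0.02. All 12 striatal markers had a higher estimate in Het and 5 passed (median 0.45): Drd1, Rasd2, Pde10a, Adcy5 and Adora2a. Their summed level, over all 12, was 353 to 602 CPM in WT and 464 to 818 CPM in Het. The first 4 named passed in 11 of 11 runs that left out 1 library and Adora2a in 3, and all 5 passed without WT replicate 11 and Het replicate 9. Of 6 thalamic markers 1 passed as higher, Tcf7l2 (median 0.25), with summed levels of 70.0 to 78.2 CPM in WT and 78.6 to 124 CPM in Het. Tcf7l2 passed in 6 of 11 runs that left out 1 library and not without WT replicate 11 and Het replicate 9 (limma adjusted p = 0.0820). Of 8 hypothalamic markers, 7 were lower in Het and 2 passed, Hcrt and Pmch (median -0.25), with summed levels of 1763 to 2344 CPM in WT and 1293 to 2083 CPM in Het. Hcrt passed in 11 of 11 runs that left out 1 library and Pmch in 2. Without WT replicate 11 and Het replicate 9, Hcrt passed and Pmch did not (limma adjusted p = 0.0385 and 0.0816). By sex, 6 of 8 hypothalamic markers were lower in males (median -0.35, 1 passed). In the striatal list 12 of 12 markers were higher in males (median 0.14, none passed). Over all genes tested, 0.0758% passed as lower in males and 0.121% as higher, with a median of -0.007. The part of the mix of tissue in the differences of Avp and Oxt was not tested.

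The choroid plexus list had no gene past the threshold of 6 tested (median -0.36, summed 16.8 to 47.0 CPM in WT and 14.5 to 28.0 CPM in Het). Lists of 5 genes each for neurons, astrocytes, oligodendrocytes, microglia and endothelium had none either, with medians of 0.08, -0.02, 0.03, -0.02 and 0.02.

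**Figure D4:**
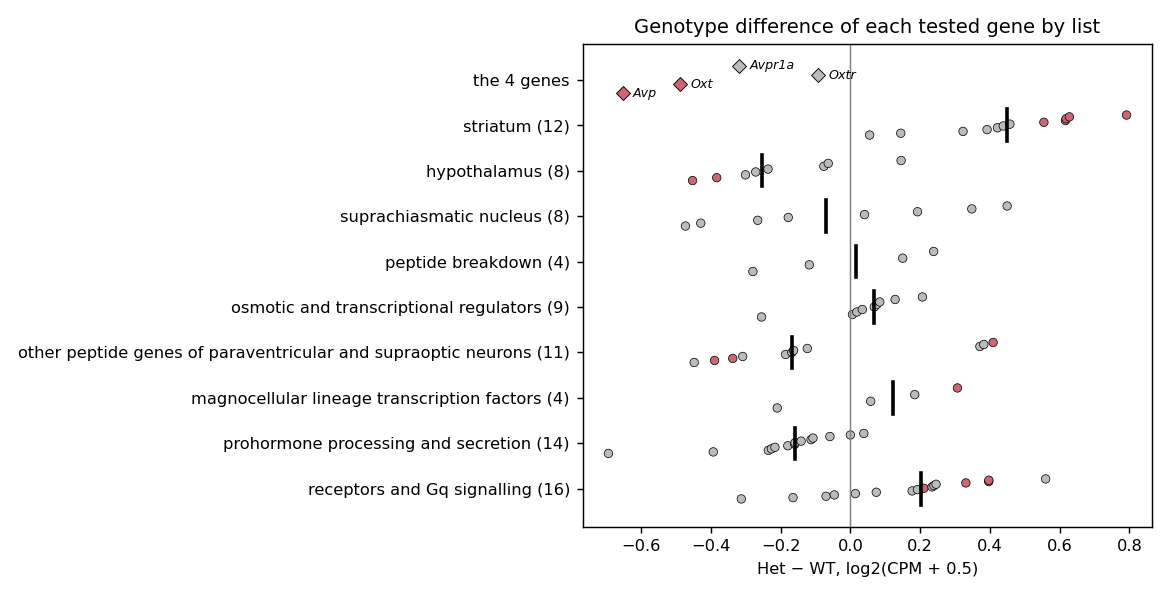
Het minus WT difference in log2(CPM + 0.5) (horizontal axis) of each tested gene in the pathway lists and in the hypothalamus and striatum lists, with the 4 genes in a row of their own. Each point is a gene, red points have an adjusted p under 0.05, and bars mark the list medians. Avp (-0.65) and Oxt (-0.49) lie lower than the median of any list shown, of which the lowest is -0.25 for hypothalamus. This sets single genes against medians. A single gene of the prohormone list lies at -0.69 without passing.

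Genes next to Avp and Oxt were also measured. Of 7 measured genes within 100 kb, none passed as lower in Het and none passed by sex. Lzts3, which encodes a postsynaptic scaffold protein, rose from 6.08 ± 0.897 CPM over 5 WT libraries to 8.85 ± 1.27 CPM over 6 Het libraries (mean and SD), by 0.52 on the log2 scale (limma adjusted p = 0.0465). Mrps26 lay nearest to Oxt and Ubox5 nearest to Avp, and they differed by -0.28 and 0.12 (limma adjusted p = 0.171 and 0.549). Ddrgk1 differed by -0.17 (limma adjusted p = 0.0538). Ptpra, Fastkd5 and Itpa differed by -0.06, -0.09 and -0.01 (limma adjusted p = 0.651, 0.829 and 0.963).

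**Figure D5:**
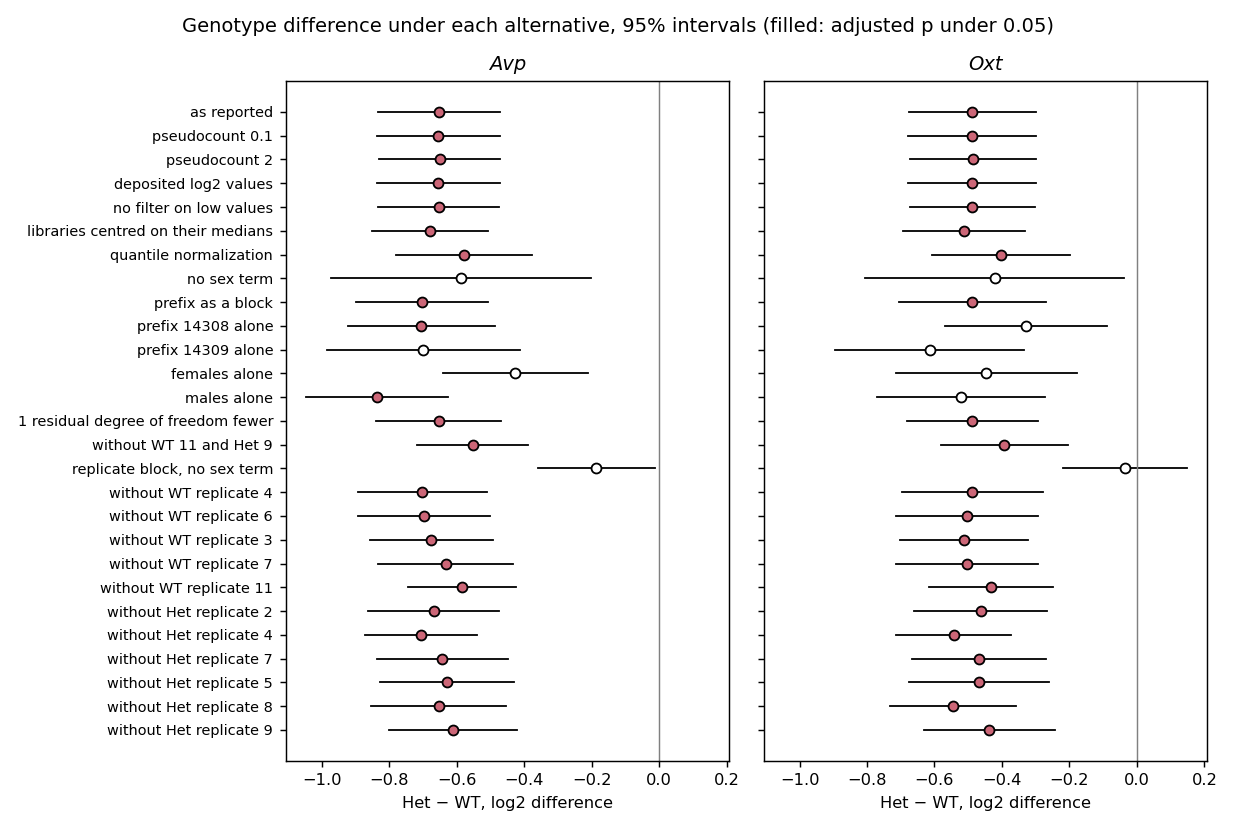
Het minus WT log2 difference (horizontal axes) of Avp and Oxt under each alternative analysis (rows), with 95% confidence intervals; filled points have an adjusted p under 0.05. The points of Avp and Oxt are below 0 in every row. Their values run up to -0.19 and -0.04 in the fit that pairs animals by number. That fit has no sex term, and its number 7 sets a Het female against a WT male.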

How the data were processed

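Hypothalamus RNA of 11 mice was sequenced, and groups and sex were taken from the sample titles. The deposited table holds log2 CPM. From its name, the authors had applied RUVr, which removes unwanted variation estimated from residuals, with settings not given in the sources used here. Per the submitters' processing notes, Trimmomatic, Bowtie2, STAR and HTSeq were used with mm10. The strand setting of the counting was not given in the sources used here. Because residual variation had been removed, the remaining spread understates that between animals and p-values are too small by an unknown amount.

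The planned analysis assumed linear CPM, so values were back-transformed by subtracting the floor of every column (log2 -3.574). All were whole multiples of 1 corrected count within 0.02; these counts were made after the correction and show no raw depth, and no count test was run on them. Without molecular identifiers, reads are not independent molecules.

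Genes whose CPM averaged at least 1 were tested, 13184 of 14864, all 4 of interest among them. Models used limma 3.58.1 (trend) in R 4.3.3 on log2(CPM + 0.5) with genotype and sex, two-sided, with Benjamini-Hochberg adjustment over all genes and a threshold of 0.05. Fold changes on this scale understate changes of low genes. The method was tested on simulated data. Positions and exon lengths came from GENCODE M21, in which 14862 genes were found. The 4 genes, the lists and the tests were chosen with earlier results of these data known, and the list medians and counts are descriptions. Besides the 4 genes, those named are the list members past the threshold (otherwise the 2 smallest p of a pathway list), neighbours within 100 kb, and the 5 genes most correlated with each; Pcsk1, Pcsk2, Sim1, Otp and Ndufab1 were named after their values were seen. A gene that this rule takes and a marker list are not reported here. Alternatives changed the pseudocount, filter, scaling, sex term, prefix, sexes and libraries used. WT and Het share replicate numbers 4 and 7, whose animals' deviations correlated at -0.14 and -0.05 over genes, so the numbers were not taken to pair animals.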

Additional observations from a re-analysis of the deposited data

How the results depend on the processing

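Avp and Oxt were lower in Het under all 26 alternatives each and passed under 22 and 20 of them, among them each of the 11 runs that left out 1 library (-0.71 to -0.58 for Avp and -0.54 to -0.43 for Oxt). Treating the correction as costing 1 residual degree of freedom gave limma adjusted p = 0.00422 and 0.0160. The calls ended without a sex term (-0.59 and -0.42), within prefix 14309 (-0.70 and -0.61) and in females alone (-0.43 and -0.45). For Oxt the call also ended within prefix 14308 (-0.33) and in males alone (-0.52). The replicate block, which had no sex term and used only the paired numbers 4 and 7, gave -0.19 for Avp, -0.035 for Oxt, 0.17 for Oxtr and -0.15 for the log2 Avp to Oxt ratio (exact permutation p = 0.5), with 46 genes passing. The calls of Avp and Oxt ended there too (limma adjusted p = 0.440 and 0.939). In number 7 the WT animal was male and the Het animal female, so genotype and sex changed together in that pair. The male minus female calls ended with the prefix as a block (-0.67 and -0.65) and within 14309 (-0.67 and -0.69), and held in 11 of 11 runs without 1 library for each gene.

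The receptors changed sign under some settings and passed under none. Oxtr by genotype was 0.20 in females alone and -0.27 to 0.084 with 1 library left out. By sex it was 0.50 with the prefix as a block, 0.56 within 14309 and -0.23 to 0.12 with 1 library left out. Avpr1a was 0.0099 by genotype within 14309, and -0.093 to 0.14 by sex with 1 library left out. The genotype by sex term of Oxt was 0.12 without WT replicate 11 and Het replicate 9, and -0.20 to 0.056 with 1 library left out. The ratio difference was 0.020 in females alone and -0.21 to -0.11 with 1 library left out. It passed without Het replicate 2 (-0.21, exact permutation p = 0.0333). The Avp and Oxt correlation was 0.798 without the 2 libraries in doubt, where it did not pass. Within 14309 it was 0.901 and did not pass either. That value rests on the 3 Het females alone, since each other group of 14309 has 1 library and is centred on itself.

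The number of genes passing between genotypes was 453. It was 200 without a sex term, 300 with the prefix as a block, 6 and 16 within prefixes 14308 and 14309, 0 in females, 1 in males, 189 with 1 residual degree of freedom fewer, 229 without both libraries in doubt, and 140 to 820 with 1 library left out. By sex it was 26 and ran from 5 to 62. The cause of these shifts was not tested. For Oxtr and Avpr1a the 95% confidence intervals by genotype reach differences as large as those called for Oxt and Avp, and no test here shows them absent.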
